A study of Mus musculus with 18 samples.

Results

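Mitosis and spindle genes are described here through the differentiation of mouse embryonic stem cells toward heart muscle. The genes were taken as a list of 50 symbols for the machinery that condenses, aligns and separates chromosomes and then splits the cell. All 50 were found among the 23337 gene symbols of the count table and all 50 were among the 13116 genes with enough counts to be tested, the lowest count of any of them in a library being 93. The libraries held polyA RNA of the TBX5-FTA cell line (strain A2Lox.cre), untreated in every group, with 5x10E5 cells harvested per sample. Cells harvested at D5, D6 and D7 were labelled cardiac progenitor cells and those at D8, D10 and D15 immature cardiomyocytes, with 3 libraries for each of the 6 days and 5257601 to 7122093 counts per library. Every group shared the same line, strain and absence of treatment, so day was the only factor that the labels give. The libraries of a day were numbered 1 to 3 only to name them. The labels do not say whether libraries of a day are from separate cultures, and p-values here reflect library-to-library spread only, which could be technical.

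Mitosis starts when cyclin-dependent kinase 1, bound to A- and B-type cyclins, drives chromosome condensation and spindle assembly. The spindle checkpoint holds cells back until kinetochores are attached, after which the anaphase-promoting complex with Cdc20 releases separase to cut cohesin, and the central spindle directs the cleavage of the cell. Most of these genes are transcribed late in the cell cycle through the MuvB complex with B-Myb and FoxM1, and are held down in resting cells by the related DREAM complex. In the mammalian heart, cardiomyocytes divide before birth and largely stop dividing soon after it, when many become binucleate or polyploid through incomplete cytokinesis.

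Relative levels of mitotic transcripts fell between D5 and D15. Levels are given as CPM, counts relative to the library total after scaling by TMM factors, and differences as log2 fold changes ± SE from edgeR's quasi-likelihood test, called at a Benjamini-Hochberg adjusted p under 0.05 over all genes tested. Of the 50 genes, 49 fell from D5 to D15 and none rose, where 37.7% of all genes tested fell and 40.3% rose. The median log2 fold change was -1.05 for the 50 genes and 0.03 for all genes tested. The largest fall was that of Cdca5 at -1.75, and the only gene not called was the abscission factor Cep55, at 0.02. In 49 genes every D15 library lay below every D5 library, which was so for 38.8% of all genes tested. Summed as a share of all counts, the 50 genes made up 0.987% ± 0.0205 (SD, n = 3) at D5, 1.07% ± 0.0121 at D6, 0.778% ± 0.0282 at D7, 0.676% ± 0.0408 at D8, 0.598% ± 0.0309 at D10 and 0.456% ± 0.0317 at D15. So the summed level was highest at D6 and fell at each later harvest, and on no day did it reach zero. In RNA from whole cultures, fewer dividing cells and less mitotic RNA per cell cannot be told apart. All these levels are relative to the other RNA of a library, and the amount of RNA per cell was not measured.

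The 2 labelled stages were compared through the means of their 3 days. All 50 genes were lower at the cardiomyocyte stage, where 37.8% of all genes tested were lower and 39.3% higher, with a median of -0.73 and a range from -1.02 for the spindle motor Kif15 to -0.18 for Cep55. The F test across the 6 days called all 50 genes, against 88.9% of all genes tested. Levels of different genes were set side by side per kilobase of exon (CPM per kb). The length merged all annotated exons of a gene, which can exceed the transcript present, so ranks between genes are approximate. On this scale the 50 genes at D5 ran from 12.2 for Kif15 to 109 for Ccna2, with a median of 29.7. At D15 the same scale ran from 4.32 for Kif15 to 59.2 for Top2a, with a median of 16.3.

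**Figure D1:**
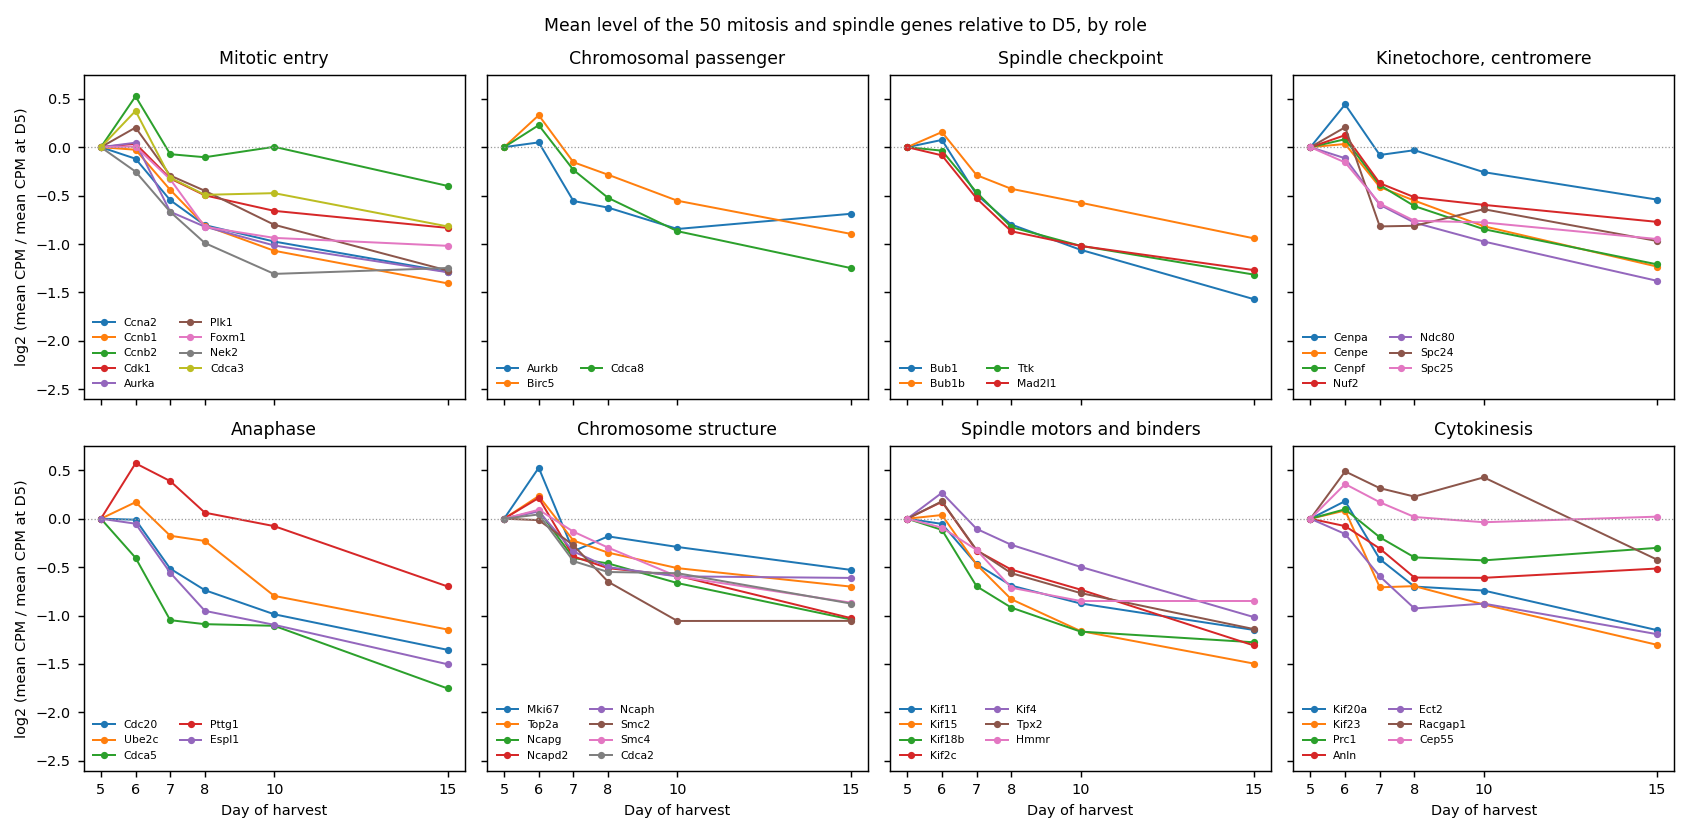
Mean level of each of the 50 genes relative to its D5 mean (vertical axis, log2 of the ratio of mean CPM) against day of harvest (horizontal axis), in 8 panels by role; each line is 1 gene and each point the mean of 3 libraries. Nearly all lines turn down between D6 and D7 and end below 0 at D15, and Cep55 in the cytokinesis panel ends at its D5 level.

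Promoter sequence is shown as a description, from a feature that the choice of genes did not use. Most of these genes are transcribed through MuvB, so shared motifs can go with the class of genes whatever their course here. Promoters of the other cell cycle lists were not searched separately. Of the 50 genes, 42 had a promoter in the RefSeq table (GRCm38.p6), with 45 promoters of 300 bases, from 250 bases before the start site to 50 after it. The motifs searched on both strands were TTTGAA and TTTAAA (forms of the cell cycle genes homology region, CHR, the site MuvB reads), CCAAT (the NF-Y site, ATTGG on the other strand), and TTCGCGC and TTGGCGC (forms of the E2F site). TTTGAA was found in 33 of the 42 genes and in 36 of their 45 promoters, against 11.5% of the promoters of genes tested and 17.9% of all 32851 promoters. TTTAAA was found in 9 genes and 9 of the 45 promoters, against 9.11% and 13.2%. CCAAT was found in 31 genes and 73.3% of their promoters, against 37.7% and 37.4%. A CHR-like word together with CCAAT was found in 29 genes and 68.9% of their promoters, against 7.56% and 10.7%. Either E2F-like word was found in 9 genes and 22.2% of their promoters, against 6.92% and 3.89%. Matches can share bases, among them those of CCAAT and TTGGCGC in Ccnb1 and Ect2 and those of CCAAT with itself in Ube2c. These are matches of letters and not measured sites.

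Stretches of 26 bases around TTTGAA are printed for 7 genes whose values are given below, to show the word within its flanks. They are read 5′ to 3′ with TTTGAA in capitals. On the minus strand lie Cdc20 (chr4:118437346-118437371), Kif23 (chr9:61946782-61946807), Mki67 (chr7:135716462-135716487) and Cdk1 (chr10:69352912-69352937). On the plus strand lie Espl1 (chr15:102296256-102296281) and Plk1 (chr7:122159455-122159480), and the plus strand is also shown for Top2a (chr11:99024197-99024222), a gene that is itself read from the minus strand.
Espl1: actagggataTTTGAAaggaggtgct
Cdc20: acagttgggtTTTGAAggagccaatg
Kif23: gattggcctgTTTGAAatgcgccggg
Mki67: gccgttttggTTTGAAtcgggcgggc
Top2a: cctagtttcaTTTGAAcctttatcta
Cdk1: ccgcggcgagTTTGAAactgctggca
Plk1: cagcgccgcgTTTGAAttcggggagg
Over the 45 promoters the word was matched 46 times, 37 of them from 100 bases before the start site onward, at a median position of -7 counted from the first transcribed base. CCAAT was matched 75 times at a median position of -67. Promoters of 1 gene can overlap and list the same bases more than once, so these matches lie at 42 and 71 distinct places in the genome.

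The 250 bases before the start site are printed for 3 genes, taken from the 4 with the largest F across days among the named genes that hold both a CHR-like word and CCAAT. They show how the 2 motifs sit relative to each other: TTTGAA (or TTCAAA) and CCAAT (or ATTGG) are in capitals where they lie wholly upstream. The stretches are Espl1 at chr15:102296043-102296292 (plus strand), Cdc20 at chr4:118437344-118437593 (minus strand) and Kif23 at chr9:61946800-61947049 (minus strand).
Espl1: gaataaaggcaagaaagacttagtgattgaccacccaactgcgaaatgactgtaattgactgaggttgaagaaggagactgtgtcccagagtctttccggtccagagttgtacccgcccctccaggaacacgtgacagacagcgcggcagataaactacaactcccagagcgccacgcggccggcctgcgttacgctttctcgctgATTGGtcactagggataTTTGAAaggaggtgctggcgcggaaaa
Cdc20: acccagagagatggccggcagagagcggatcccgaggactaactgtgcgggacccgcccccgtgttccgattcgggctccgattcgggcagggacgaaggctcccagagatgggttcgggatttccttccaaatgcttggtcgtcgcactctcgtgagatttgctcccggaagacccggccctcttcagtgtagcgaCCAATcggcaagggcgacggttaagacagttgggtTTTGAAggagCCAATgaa
Kif23: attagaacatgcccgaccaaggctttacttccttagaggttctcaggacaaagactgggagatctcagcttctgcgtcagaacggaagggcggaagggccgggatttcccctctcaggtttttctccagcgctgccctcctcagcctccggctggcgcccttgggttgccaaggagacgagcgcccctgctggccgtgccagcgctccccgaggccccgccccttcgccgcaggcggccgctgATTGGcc
In Espl1 and Cdc20 a CCAAT word (ATTGG in Espl1) lies upstream of TTTGAA within the stretch, and Cdc20 holds a further CCAAT after it. The median log2 fold change from D5 to D15 was -1.05 in 33 genes with TTTGAA and -1.23 in 9 others with a promoter entry. With TTTAAA counted as well, it was -1.10 in the 36 genes with either word and -1.01 in the rest. For CCAAT it was -1.14 with the word and -0.89 without. For a CHR-like word together with CCAAT it was -1.05 and -1.24, and for either E2F-like word -1.03 and -1.14. Differences between these groups were not tested. Neither TTTGAA nor TTTAAA was found in the window of Bub1, Mad2l1, Ncaph, Nek2, Nuf2 or Pttg1, and TTTGAA was found in that of Racgap1 and Cep55, which with Pttg1 were the genes not called from D6 to D7.

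Mitotic entry was covered by 9 genes: the cyclins Ccna2, Ccnb1 and Ccnb2, their kinase Cdk1, the kinases Aurka, Plk1 and Nek2, the transcription factor Foxm1 and Cdca3, which helps remove the Cdk1 inhibitor Wee1. All 9 fell from D5 to D15, where 37.7% of all genes tested fell, with a median of -1.24. Ccnb1 (chr13:100778650-100786570, minus strand), a B-type cyclin, stood at 98.7, 86.2 and 92.99 CPM in the D5 libraries, 89.9, 95.4 and 87.5 at D6, 68.8, 69.9 and 66.04 at D7, 51.7, 54.3 and 52.6 at D8, 41.8, 45.4 and 45.3 at D10 and 29.5, 36.5 and 38.9 at D15. Its D15 libraries were all below every library of D5 to D10, and the log2 fold change from D5 to D15 was -1.40 ± 0.09 (adjusted p = 1.76e-14). Only 76.6% of the 50-base stretches of Ccnb1 are unique among transcripts, so its counts may hold reads of near-identical copies.

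The other B-type cyclin took a different course. Ccnb2 (chr9:70407692-70421547, minus strand) stood at 81.8, 84.3 and 83.6 CPM at D5, rose to 119.6, 131 and 109 at D6, and was at 83.1, 77.8 and 76.6 at D7, 81.04, 75.8 and 75.4 at D8, 79.7, 81.7 and 88.96 at D10 and 51.4, 68.4 and 69.4 at D15. Its log2 fold change was 0.52 ± 0.09 (adjusted p = 2.23e-05) from D5 to D6 and -0.60 ± 0.09 (adjusted p = 6.02e-06) from D6 to D7, which returned it to near its D5 level until D10. From D5 to D15 it changed by -0.40 ± 0.09 (adjusted p = 2.77e-04), the smallest fall among the entry genes.

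Cdk1 (chr10:69335146-69352938, minus strand), the kinase that both cyclins activate, stood at 274, 284 and 273 CPM at D5, 279, 292 and 282 at D6, 233, 213 and 218 at D7, 189, 202 and 198 at D8, 169, 168 and 190.5 at D10 and 154, 150.5 and 163 at D15. It fell by 0.83 ± 0.06 (adjusted p = 5.91e-13) on the log2 scale, less than its partner Ccnb1, a difference between genes that was not tested. Plk1 (chr7:122159439-122169873, plus strand), the polo-like kinase, stood at 135, 135 and 134 CPM at D5, 155, 159 and 151 at D6, 105, 108 and 117 at D7, 85.3, 97.3 and 113 at D8, 75.99, 80.8 and 75.2 at D10 and 44.7, 57.4 and 65.1 at D15. The D15 libraries of Plk1 were the lowest of all and spread more widely than those of D5, with a change of -1.27 ± 0.10 (adjusted p = 3.29e-12). Foxm1 (chr6:128362967-128376146, plus strand), which activates many of the other genes, stood at 169.8, 170.3 and 173 CPM at D5, 172, 161 and 183 at D6, 119, 139.8 and 149 at D7, 92.4, 97.6 and 100.4 at D8, 82.6, 84.8 and 101 at D10 and 76.2, 80.3 and 96.97 at D15. Its log2 fold change from D7 to D8, -0.49 ± 0.09 (adjusted p = 1.31e-04), was the largest of the 50 genes in that step, and its libraries of D8, D10 and D15 overlapped. From D5 to D15 Foxm1 changed by -1.02 ± 0.09 (adjusted p = 3.10e-11).

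Chromosome structure was covered by 8 genes: Mki67, which coats mitotic chromosomes, the DNA topoisomerase Top2a, the condensin subunits Smc2, Smc4, Ncapg, Ncapd2 and Ncaph, and the phosphatase-targeting protein Cdca2. All 8 fell from D5 to D15, where 37.7% of all genes tested fell, with a median of -0.87. Mki67 (chr7:135689784-135716361, minus strand), the gene of the proliferation marker Ki-67, stood at 580.5, 513 and 596 CPM at D5, 857, 744 and 832 at D6, 367, 489.9 and 482 at D7, 459, 542 and 488 at D8, 447, 437 and 496 at D10 and 367, 382 and 422 at D15. The D6 libraries stood above all others and those of D7, D8 and D10 overlapped. Mki67 rose by 0.53 ± 0.10 (adjusted p = 2.07e-04) from D5 to D6 and changed by -0.86 ± 0.10 (adjusted p = 9.85e-07) from D6 to D7. From D5 to D15 it changed by -0.53 ± 0.10 (adjusted p = 4.69e-05), the smallest fall of the chromosome genes.

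Top2a (chr11:98992943-99024189, minus strand), which untangles sister DNA, stood at 895, 825 and 881 CPM at D5, 1030, 988 and 1041 at D6, 688, 782 and 755 at D7, 649, 739 and 653 at D8, 569, 601 and 656 at D10 and 508, 524 and 568 at D15. It kept a log2 fold change of -0.70 ± 0.07 (adjusted p = 1.24e-10) and was the highest of the 50 genes per kilobase at D15. Smc2 (chr4:52439243-52488260, plus strand), the core subunit shared by both condensins, stood at 374, 359.8 and 361 CPM at D5, 378, 349 and 357 at D6, 270.3, 331 and 304 at D7, 221, 256 and 220.2 at D8, 183, 171 and 173 at D10 and 163, 185 and 179 at D15. Smc2 changed from D5 to D15 by -1.05 ± 0.07 (adjusted p = 8.45e-14), the most of the chromosome genes, and its libraries of D10 and D15 overlapped. Its partner Smc4 changed by -0.87 ± 0.07 (adjusted p = 7.91e-12), and the condensin I subunits Ncapg, Ncapd2 and Ncaph by -1.04, -1.03 and -0.61. Ncaph was not called from D10 to D15 (-0.01 ± 0.09, adjusted p = 0.912).

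Kinetochore and centromere genes numbered 7 and all fell from D5 to D15, against 37.7% of all genes tested, with a median of -0.97. Ndc80, Nuf2, Spc24 and Spc25 form the complex that grips microtubules, Cenpa is the centromeric histone, and Cenpe and Cenpf bind the outer kinetochore. Ndc80 (chr17:71496100-71526857, minus strand) stood at 103, 95.1 and 113 CPM at D5, 97.1, 94.3 and 95.9 at D6, 67.8, 67.1 and 71.2 at D7, 55.2, 60.7 and 65.4 at D8, 47.9, 49.4 and 61.1 at D10 and 39.7, 35.98 and 43.8 at D15. All its D15 libraries lay below every other library, and the change from D5, -1.38 ± 0.10 (adjusted p = 1.09e-13), was the largest of the 7. Cenpa (chr5:30666777-30674830, plus strand) stood at 69.8, 78.1 and 78.5 CPM at D5, 99.7, 116 and 91.8 at D6, 80.3, 65.9 and 68.1 at D7, 74.9, 78.3 and 68.4 at D8, 67.4, 59.2 and 62.9 at D10 and 38.7, 59.6 and 57.4 at D15. Cenpa rose by 0.44 ± 0.12 (adjusted p = 0.00491) from D5 to D6, and its D15 libraries, 1 of which was far below the other 2, overlapped those of D10. Its change from D5 to D15 was -0.54 ± 0.12 (adjusted p = 3.85e-04), the smallest of the 7.

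The 4 subunits of the Ndc80 complex all fell, with different values from D6 to D7. Spc24 (chr9:21755442-21760303, minus strand) stood at 41.6, 46.97 and 37.8 CPM at D5, 51.2, 49.8 and 44.7 at D6, 22.6, 23.5 and 25.6 at D7, 22.5, 25.1 and 24.4 at D8, 27.5, 27.3 and 26.3 at D10 and 17.3, 25.3 and 21.9 at D15. Its log2 fold change of -1.02 ± 0.12 (adjusted p = 1.35e-07) from D6 to D7 was the largest of the 50 genes in any step, after which its libraries of D7, D8 and D15 overlapped. Over the same step Ndc80, Nuf2 and Spc25 changed by -0.48, -0.50 and -0.43, and from D5 to D15 Spc24, Nuf2 and Spc25 changed by -0.97, -0.77 and -0.95. Differences between the subunits were not tested. None of the 7 kinetochore genes was called from D7 to D8, where 24.2% of all genes tested were called.

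The chromosomal passenger complex, which corrects faulty attachments and later acts at the cleavage site, was covered by its kinase Aurkb and by Birc5 and Cdca8. All 3 fell from D5 to D15, where 37.7% of all genes tested fell, with a median of -0.89. Aurkb (chr11:69045647-69051664, plus strand) stood at 109.9, 106 and 110.2 CPM at D5, 116, 112 and 109 at D6, 71.5, 71.9 and 78.1 at D7, 67.7, 68.5 and 75.1 at D8, 59.3, 62.7 and 59.4 at D10 and 61.4, 67.7 and 72.97 at D15. The largest fall, -0.61 ± 0.07 (adjusted p = 3.24e-07), was from D6 to D7, and its D15 libraries overlapped those of D7 and D8. From D10 to D15 its fold change was above 0 and not called (0.16 ± 0.08, adjusted p = 0.0973), and it was called higher when D15 library 1 was left out. Cdca8 (chr4:124918465-124939311, minus strand), the subunit borealin, stood at 127, 124 and 127 CPM at D5, 142, 151 and 149.9 at D6, 108, 111 and 103 at D7, 83.9, 91.3 and 87.99 at D8, 65.6, 72.2 and 69.6 at D10 and 47.8, 53.5 and 57.9 at D15. No library of D8 overlapped one of D7, D10 or D15, and the whole change from D5 was -1.25 ± 0.07 (adjusted p = 3.54e-15), against -0.69 ± 0.08 (adjusted p = 2.06e-09) for Aurkb. Birc5 (survivin) changed by -0.89 ± 0.10 (adjusted p = 2.78e-09).

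The spindle checkpoint was covered by Bub1, Bub1b, Ttk and Mad2l1, which signal from unattached kinetochores. From D5 to D15 all 4 fell, against 37.7% of all genes tested, with a median of -1.29. Bub1 (chr2:127801122-127831865, minus strand) stood at 236, 221 and 227 CPM at D5, 235, 243 and 243 at D6, 149, 163 and 175 at D7, 122, 146 and 125 at D8, 108, 104 and 116 at D10 and 75.5, 74.97 and 80.01 at D15. The D15 libraries had an SD of 2.76 CPM and were below all others, for a change of -1.57 ± 0.07 (adjusted p = 1.27e-17). Bub1b (chr2:118598211-118641591, plus strand) stood at 217, 213 and 204 CPM at D5, 251, 221 and 233 at D6, 167, 177 and 174 at D7, 145, 172 and 152 at D8, 134, 142 and 149 at D10 and 105, 102 and 123 at D15. Its change of -0.94 ± 0.08 (adjusted p = 2.99e-12) was the smallest of the checkpoint genes, and Ttk and Mad2l1 changed by -1.31 and -1.27.

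Anaphase was covered by Cdc20 and Ube2c of the anaphase-promoting complex pathway, the cohesin protector Cdca5 (sororin), securin (Pttg1) and separase (Espl1). All 5 fell from D5 to D15, where 37.7% of all genes tested fell, with a median of -1.35, the lowest of the 8 roles. Again all 5 fell from D10 to D15, where 24.4% of all genes tested fell. Cdc20 (chr4:118432901-118437352, minus strand), whose promoter is printed above, stood at 138, 152 and 149 CPM at D5, 143, 144 and 148 at D6, 104, 95.05 and 108 at D7, 85.8, 89.3 and 87.8 at D8, 71.5, 68.7 and 81.03 at D10 and 51.01, 63.3 and 57.3 at D15. Its groups from D6 on did not overlap their neighbours, and the change from D5 to D15 was -1.35 ± 0.08 (adjusted p = 2.79e-15). Espl1 (chr15:102296266-102324357, plus strand), the protease that cuts cohesin, stood at 152, 148 and 162 CPM at D5, 146, 143 and 157 at D6, 96.5, 107 and 111 at D7, 72.3, 83.6 and 82.97 at D8, 67.5, 66.5 and 82.2 at D10 and 49.8, 54.6 and 58.7 at D15. It changed by -1.5 ± 0.09 (adjusted p = 1.62e-15) from D5 to D15, with -0.40 ± 0.09 (adjusted p = 8.66e-04) of that between D7 and D8.

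Securin and sororin parted at D6. Pttg1 (chr11:43420250-43426251, minus strand), the separase inhibitor, stood at 46.1, 47.7 and 45.9 CPM at D5, 68.97, 70.3 and 68.5 at D6, 64.6, 62.2 and 56.1 at D7, 48.9, 50.5 and 46.5 at D8, 44.2, 44.2 and 44.1 at D10 and 26.1, 29.1 and 30.9 at D15. Its rise of 0.57 ± 0.08 (adjusted p = 2.79e-06) was the largest of the 50 genes from D5 to D6, and at D10 its libraries were only slightly under those of D5. Cdca5 (chr19:6084983-6091777, plus strand) stood at 63.01, 65.7 and 63.3 CPM at D5, 48.3, 51.6 and 45.2 at D6, 29.5, 35.6 and 27.7 at D7, 29.2, 30.5 and 30.5 at D8, 30.7, 28.1 and 30.4 at D10 and 16.4, 17.4 and 23.2 at D15. It was the only gene called lower from D5 to D6 (-0.40 ± 0.10, adjusted p = 0.00321), had overlapping libraries from D7 to D10, and changed again by -0.64 ± 0.13 (adjusted p = 9.25e-05) to D15. From D5 to D15 Cdca5 changed by -1.75 ± 0.12 (adjusted p = 4.44e-14) and Pttg1 by -0.70 ± 0.09 (adjusted p = 5.29e-08). Ube2c (chr2:164769898-164778822, plus strand), the ubiquitin-conjugating enzyme of the complex, stood at 98.5, 96.4 and 96.3 CPM at D5, 106, 113 and 109 at D6, 88.6, 86.1 and 83.1 at D7, 81.5, 93.4 and 73.4 at D8, 55.9, 58.4 and 53.4 at D10 and 39.2, 42.2 and 50.4 at D15. Its change between D8 and D10, -0.57 ± 0.09 (adjusted p = 1.22e-05), was the largest of that step. Exons of the troponin gene Tnnc2 cover 22.8% of the exon bases of Ube2c, so its counts may hold reads of that gene.

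**Figure D2:**
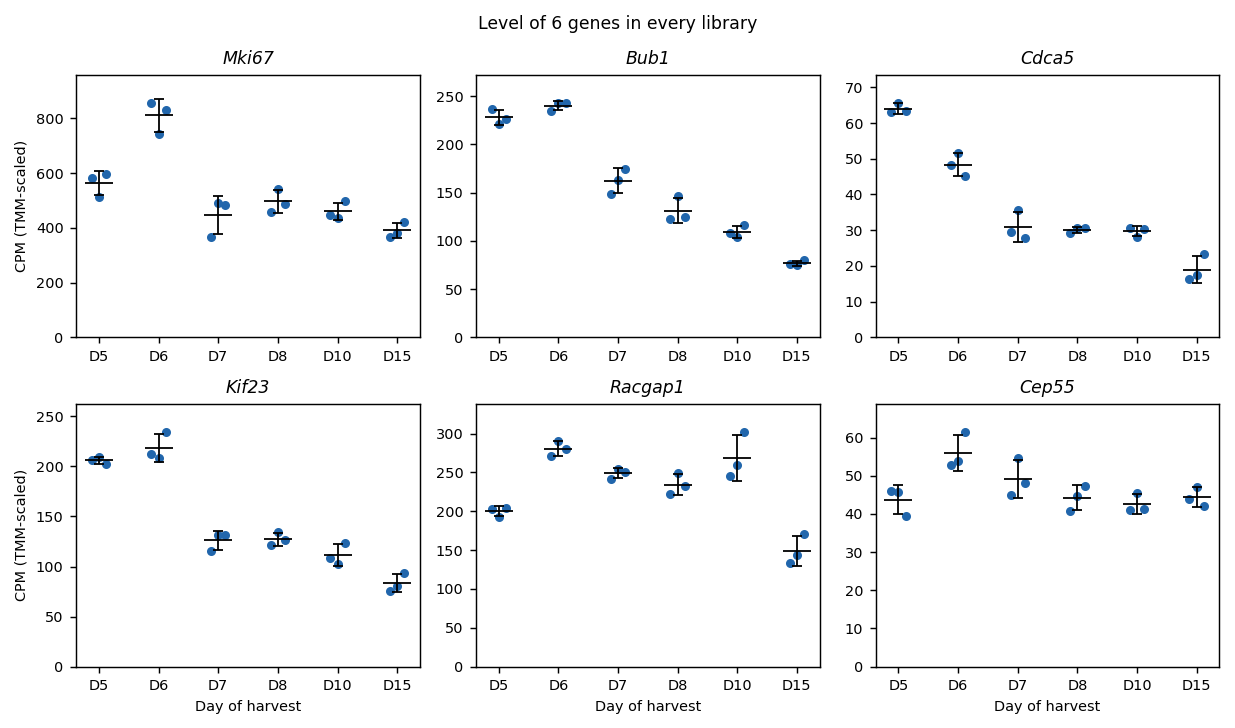
CPM (vertical axis, starting at 0) by day of harvest for 6 genes with different courses; points are libraries, the horizontal bar is the mean and the whiskers ± 1 SD of 3 libraries. Mki67 peaks at D6, Bub1 and Kif23 fall, Cdca5 falls in 2 stages with a level between them from D7 to D10, Racgap1 stays above its D5 level until D10, and Cep55 ends near its D5 level.

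Spindle motors and binders numbered 7: the motors Kif11 and Kif15, which push spindle poles apart, Kif18b and Kif2c, which shorten microtubules, the chromosome-bound motor Kif4, and the microtubule binders Tpx2 and Hmmr. All 7 fell from D5 to D15, where 37.7% of all genes tested fell, with a median of -1.15. From D6 to D7 all 7 fell as well, where 15.3% of all genes tested fell. Kif15 (chr9:122951046-123018733, plus strand) stood at 134, 119.9 and 148 CPM at D5, 135, 132 and 146 at D6, 90.8, 107 and 92.2 at D7, 67.5, 77.3 and 81.3 at D8, 63.7, 49.9 and 66.5 at D10 and 45.2, 45.2 and 52.3 at D15. Kif15 was called lower at each step from D6 on, although its D10 and D15 libraries overlapped, and changed by -1.49 ± 0.10 (adjusted p = 2.25e-13) over all. Hmmr (chr11:40701395-40733422, minus strand) stood at 194, 172 and 179 CPM at D5, 165, 169 and 177 at D6, 135, 142 and 159 at D7, 101, 115 and 116 at D8, 103, 88.7 and 111 at D10 and 94.96, 99.3 and 108 at D15. The libraries of Hmmr overlapped from D8 to D15, and its change of -0.85 ± 0.08 (adjusted p = 1.25e-10) was the smallest of the spindle genes. Kif11, Kif18b, Kif2c, Kif4 and Tpx2 changed by -1.15, -1.28, -1.31, -1.01 and -1.14.

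Cytokinesis genes had the smallest median change. Of the 7 genes, 6 were called lower at D15 than at D5, against 37.7% of all genes tested. The median was -0.51, the nearest to 0 of the 8 roles, although the 2 kinesins and Ect2 among them fell by more than the median of all 50 genes. Kif23 (chr9:61915905-61946774, minus strand), the motor subunit of centralspindlin, stood at 206, 209.7 and 202 CPM at D5, 213, 208 and 235 at D6, 115, 131 and 132 at D7, 121, 134 and 126 at D8, 108, 103 and 124 at D10 and 75.9, 80.8 and 93.9 at D15. It changed by -0.79 ± 0.08 (adjusted p = 9.39e-09) from D6 to D7, and its libraries of D7, D8 and D10 then overlapped before the further change to D15. Over the whole course it changed by -1.30 ± 0.08 (adjusted p = 9.12e-15). Kif20a and the exchange factor Ect2 changed by -1.15 and -1.19, with the limit that exons of Cdc23 cover 29.3% of the exon bases of Kif20a and only 74.8% of its 50-base stretches are unique.

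Racgap1, the GTPase-activating partner of Kif23 in centralspindlin, took another course. Racgap1 (chr15:99620496-99651656, minus strand) stood at 203, 192 and 205 CPM at D5, 272, 289.9 and 280.4 at D6, 242, 254 and 251 at D7, 222, 249 and 232 at D8, 245, 259.5 and 302 at D10 and 134, 143 and 171 at D15. Every library from D6 to D10 stood above every D5 library, and every D15 library stood below them. It rose by 0.49 ± 0.08 (adjusted p = 9.20e-06) from D5 to D6, was not called from D6 to D7 (-0.17 ± 0.08, adjusted p = 0.0865) or from D7 to D8, and fell by 0.85 ± 0.08 (adjusted p = 3.47e-10) from D10 to D15, the largest change of that step. Its rise from D8 to D10, 0.20 ± 0.08 (adjusted p = 0.0498), was near the threshold and was not called under 7 of 9 alternatives or when any of 14 of the 18 libraries was left out. From D5 to D15 the change was -0.42 ± 0.08 (adjusted p = 1.93e-05), against -1.30 in Kif23, a difference that was not tested.

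Cep55 (chr19:38055011-38074423, plus strand), which brings the abscission machinery to the midbody, stood at 45.98, 45.8 and 39.4 CPM at D5, 52.9, 53.8 and 61.5 at D6, 44.97, 54.6 and 48.1 at D7, 40.8, 44.8 and 47.2 at D8, 40.99, 45.6 and 41.4 at D10 and 43.9, 47.1 and 42.1 at D15. Its D15 libraries overlapped those of D5. It rose by 0.36 ± 0.10 (adjusted p = 0.00488) from D5 to D6, was not called lower in any single step, and differed by 0.02 ± 0.10 (adjusted p = 0.855) between D5 and D15. That value was not called under any setting and lay below 0 under upper quartile factors (-0.01), under library totals alone (-0.14) and without D5 library 3 (-0.05) or D15 library 2 (-0.02). D6 was its highest day, and Cep55 was called lower at the cardiomyocyte stage (-0.18 ± 0.06, adjusted p = 0.00702). The bundling protein Prc1 and the cleavage-furrow scaffold Anln likewise ended above their lowest day: they changed by -0.30 ± 0.06 (adjusted p = 1.10e-04) and -0.51 ± 0.07 (adjusted p = 1.05e-07) from D5 to D15, and by 0.13 and 0.10, neither called, from D10 to D15.

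From D5 to D6, while the cells were still labelled progenitors, 13 of the 50 genes rose and 1 fell, where 18.2% of all genes tested rose and 16.4% fell. The median was 0.08. In 22 genes every D6 library lay above every D5 library, which was so for 25.2% of all genes tested. The 13 that rose were Pttg1, Mki67, Ccnb2, Racgap1, Cenpa, Cdca3, Cep55, Birc5, Kif4, Top2a, Cdca8, Ncapd2 and Tpx2, by 0.57 down to 0.18, and the 1 that fell was Cdca5. None of the 4 checkpoint genes was called in this step, where 34.6% of all genes tested were called. When the compared days were fitted alone, 4 genes were called lower, adding Ccna2, Ect2 and Nek2. D6 was the day of the highest mean for 34 of the 50 genes and D5 for the other 16, where these were the highest days of 12.9% and 25.6% of all genes tested.

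The step from D6 to D7 lowered nearly the whole set. Of the 50 genes 47 fell and none rose, where 15.3% of all genes tested fell and 15.1% rose, with a median of -0.47 and a range from -1.02 for Spc24 to -0.17 for Racgap1. Pttg1, Racgap1 and Cep55 were not called. In 49 genes every D7 library lay below every D6 library, against 21.8% of all genes tested. For 39 of the 49 genes called from D5 to D15 this step held the largest fall, a count not made over all genes tested. Its median share of their whole D5 to D15 change on the log2 scale was 39.2%, with a range from 24.6% to 163.2%. The median share of the step from D5 to D6 was -6.80%, a rise, so part of the fall to D7 can undo that rise. The step from D6 to D7 spans 1 day and lies within the days labelled cardiac progenitor cells.

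Smaller falls followed. From D7 to D8, the step between the labelled stages, 20 genes fell and none rose (11.6% and 12.6% of all genes tested), with a median of -0.18, and the largest changes were those of Foxm1 (-0.49), Espl1 (-0.40) and Hmmr (-0.39). In 27 genes every D8 library lay below every D7 library, against 18.5% of all genes tested. Without D8 library 1, 13 genes fell in that step. From D8 to D10, 14 genes fell and 1 rose (13.9% and 17.3% of all genes tested), with a median of -0.18, and the largest changes were those of Ube2c (-0.57), Smc2 (-0.40) and Plk1 (-0.35). This count moved with single libraries: 6 genes fell without D8 library 2, 7 without D8 library 3, 7 without D10 library 1 and 8 without D10 library 2, and up to 21 without another library. With library totals alone it was 23. Every D10 library lay below every D8 library in 18 genes, against 20.6% of all genes tested.

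From D10 to D15 37 genes fell and none rose (24.4% and 26.4% of all genes tested), with a median of -0.33, and the largest changes were those of Racgap1 (-0.85), Cdca5 (-0.64) and Pttg1 (-0.62). In 35 genes every D15 library lay below every D10 library, against 27.4% of all genes tested. With library totals alone, 33.0% of all genes tested fell in that step and 21.0% rose. Spread over the 5 days it covers, the median was -0.07 per day, against -0.47 for the day from D6 to D7. Means fell at every step from D6 on in 35 of the 50 genes (70.0%), against 12.6% of all genes tested. The lowest day was D15 for 43 genes and D10 for 7, where these were the lowest days of 33.1% and 10.6% of all genes tested. Called falls were found in 4 steps for 6 genes, in 3 for 16, in 2 for 20, in 1 for 7 and in none for Cep55. The same tally was not made over all genes tested, so it only describes the 50 genes. Against a fold threshold of 1.5, 40 genes were called lower from D5 to D15, where 20.8% of all genes tested were. Between the stages it was 28, against 10.4%. From D6 to D7 that threshold left 3 genes (Spc24, Mki67 and Kif23), against 1.24% of all genes tested, and from D10 to D15 Racgap1 alone, against 5.89%.

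**Figure D3:**
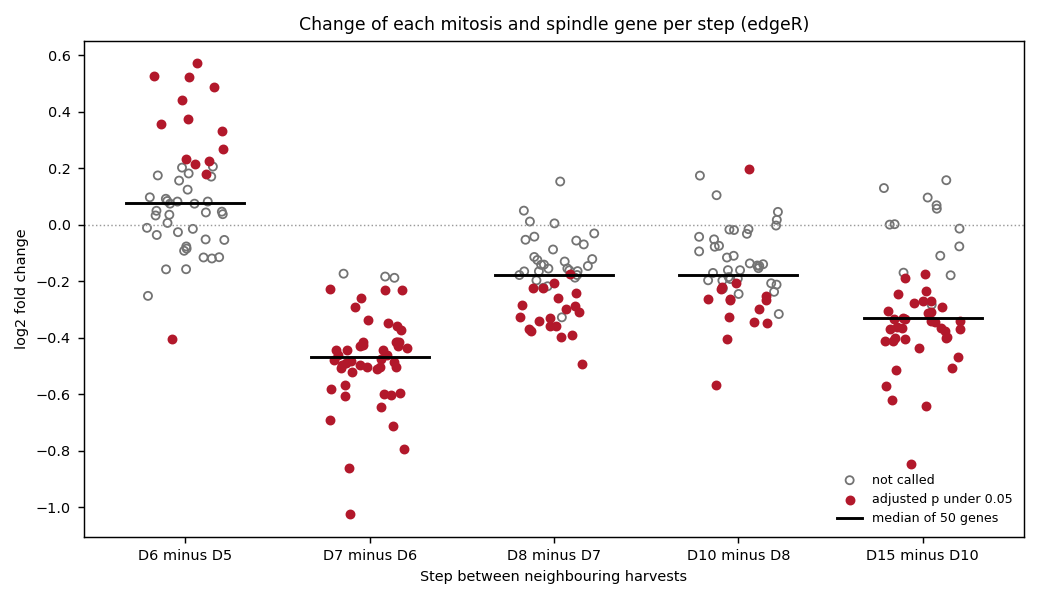
log2 fold change (vertical axis) of each of the 50 genes in each step between neighbouring harvests (horizontal axis); filled points were called at an adjusted p under 0.05, open points were not, and the bar is the median. The medians are 0.08, -0.47, -0.18, -0.18 and -0.33 from the first step to the last.

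**Figure D4:**
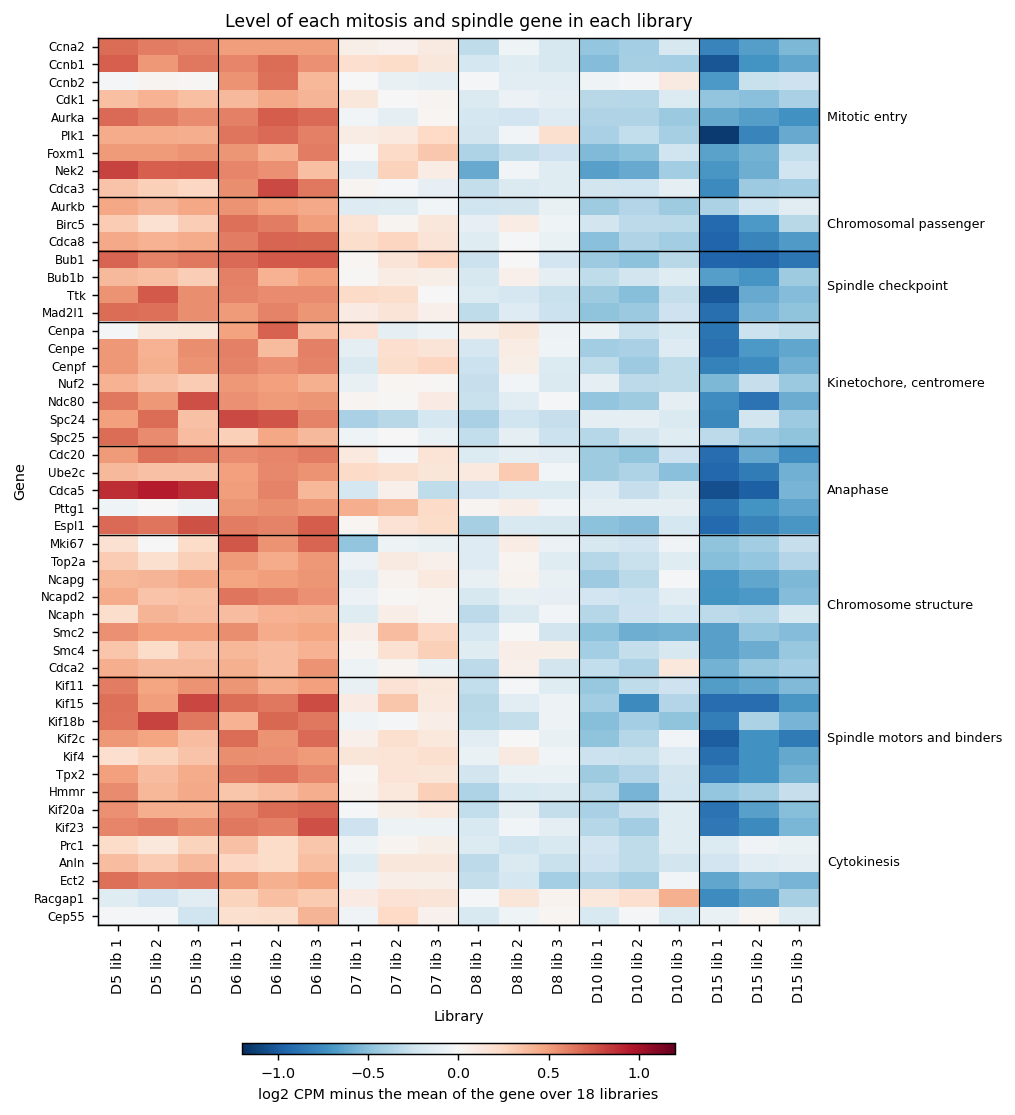
log2 CPM of each gene (rows, grouped by role) in each of 18 libraries (columns, by day) minus its mean over the 18 libraries; red is above and blue below the mean. D5 and D6 are red for most genes and D15 blue, D15 library 1 is the bluest column, and Racgap1 and Cep55 at the bottom depart from the pattern.

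Within a day, libraries differed together across the genes. D15 library 1 was the lowest of its day for 42 of the 50 genes and D15 library 3 the highest for 38, and at D8 library 1 was the lowest for 40 and library 2 the highest for 36. D10 library 3 was the highest for 34, and D7 library 1 the lowest for 32. Across the pairs of genes, the median Pearson correlation of deviations from the day means over the 18 libraries was 0.41 for the 50 genes, with 89.4% of pairs above 0, against 0.23 and 75.6% for a list of 52 DNA replication genes and 50.0% of pairs above 0 for all genes tested. The libraries share depth and scaling across these genes, so the pairs are not independent. The spread itself was small: the median SD within a day was 0.11 on the log2 scale for the 50 genes, from 0.06 in Aurka to 0.19 in Nek2, and 0.16 for all genes tested.

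Markers of cell types also differed between days and libraries. Of all genes tested, 40.3% rose and 37.7% fell from D5 to D15, the shares to set beside the marker counts that follow. All 14 cardiomyocyte markers had counts on every day, 12 of 14 rose from D5 to D15, and their summed share of counts was 0.0649% to 0.0745% at D5 and 0.566% to 1.01% at D15. All 14 fibroblast markers were likewise counted, 13 of 14 rose, and their summed share went from 0.398% to 0.435% at D5 to 4.55% to 5.46% at D15. Epicardial markers rose in 7 of 8 cases and endothelial markers in 10 of 10, with summed shares of 0.290% to 0.305% and 0.0326% to 0.0498% at D15. Of the 10 progenitor markers tested 5 rose and 4 fell, and Mesp1 had no count at D6, D7, D10 or D15. The 2 pluripotency markers tested both fell, and the summed share of the 8 found went from 0.0110% to 0.0116% at D5 to 0.000621% to 0.000995% at D15. Of 7 smooth muscle markers 3 rose and 4 fell, of 5 neural markers tested 2 rose and 3 fell, of 4 endoderm markers tested 2 rose and 2 fell, and of 3 blood markers tested 1 rose and 1 fell. On D7, D8, D10 and D15 the library with the highest cardiomyocyte marker share was the one with the lowest share of the 50 genes, whereas on D5 and D6 it was the one with the highest. In the column order of the table, the first library of a day had the highest cardiomyocyte marker share on 6 of 6 days and the third the highest fibroblast marker share on 6 of 6. At D15 these shares were 1.01% and 0.424% in library 1, 0.758% and 0.457% in library 2, and 0.566% and 0.487% in library 3. The part of cell type shares in the fall of the mitotic genes was not tested.

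**Figure D5:**
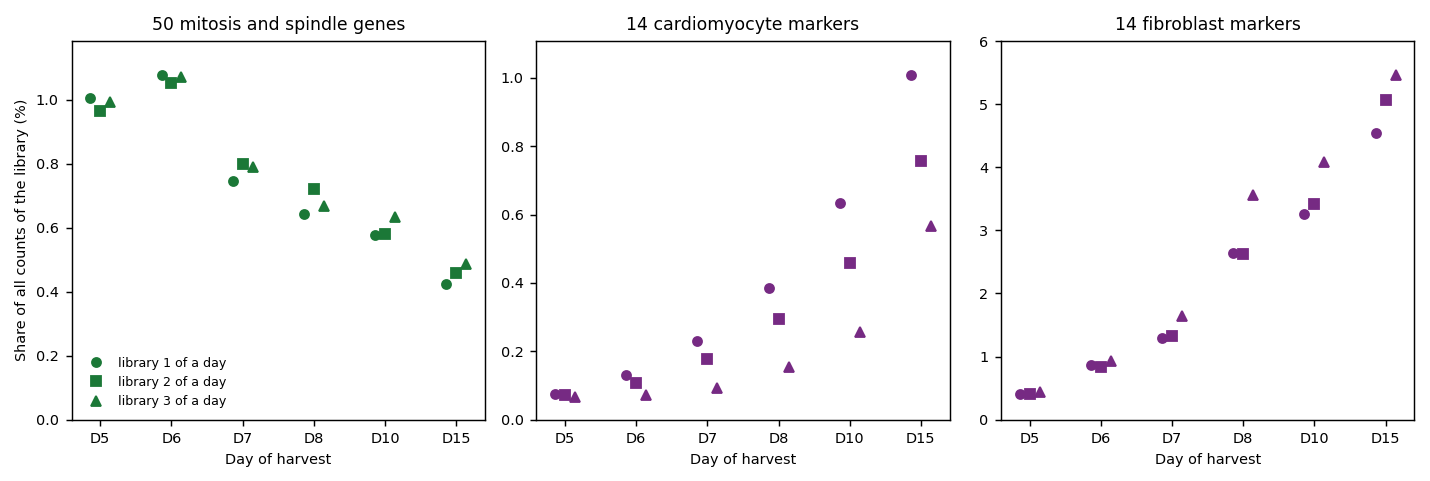
Share of all counts of a library (vertical axes, percent, each panel with its own scale from 0) by day of harvest for the 50 mitosis and spindle genes, 14 cardiomyocyte markers and 14 fibroblast markers; each point is a library, with 1 symbol for each library number of a day. The mitotic share falls from D6 on while both marker shares rise, and at D15 library 1 has the lowest mitotic and the highest cardiomyocyte share.

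Other cell cycle genes gave a setting for these values. Of all genes tested, 37.7% fell and 40.3% rose from D5 to D15, and 15.3% fell from D6 to D7. Of 52 genes of DNA replication, 49 were called lower from D5 to D15, with a median of -1.42; the replication factors Mcm10 (-2.58) and Mcm5 (-1.79) and the nucleotide reductase subunit Rrm2 (-1.88) had the smallest p-values. Their median from D6 to D7 was -0.63, with 50 of 52 called lower. Of 98 further mitotic genes found, 90 fell and 3 rose, with a median of -0.89; Gtse1 (-2.29), the cyclin Ccnf (-1.94) and the tubulin Tubb5 (-1.21) had the smallest p-values, and the 3 that rose were the anaphase-promoting complex subunits Anapc1 (0.85), Cdc26 (0.56) and Anapc5 (0.18). Whether the medians of these lists differ was not tested.

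Regulators of the late cell cycle genes were mixed. Of 12 genes of the MuvB, B-Myb and DREAM complexes, 8 fell and 1 rose from D5 to D15, with a median of -0.44. So 75.0% of the list was called, against 78.0% of all genes tested, of which 37.7% fell and 40.3% rose. Mybl2, which encodes the activator B-Myb, changed by -2.93 ± 0.13 (adjusted p = 2.91e-18). Rbl2, which encodes the DREAM pocket protein p130, was the 1 that rose, by 3.11 ± 0.14 (adjusted p = 6.87e-18). The others called all fell: E2f5 (-1.54 ± 0.10), Tfdp1 (-1.05), Lin54 (-0.72), Lin9 (-0.57), E2f4 (-0.44), Rbbp4 (-0.44) and Rbl1 (-0.42). Of 13 genes of the G1 phase, 7 rose and 3 fell, so 76.9% were called, against 78.0% of all genes tested. The CDK inhibitors Cdkn2c (3.79), Cdkn2b (3.28) and Cdkn1c (1.38) had the smallest p-values. The inhibitors Cdkn2a (1.31), Cdkn2d (0.82) and Cdkn1b (0.21) and the D cyclin Ccnd3 (0.49) also rose. The 3 that fell were the cyclins Ccnd1 (-3.52) and Ccnd2 (-0.82) and their kinase Cdk4 (-0.47).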

How the data were processed

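The values are raw counts per gene symbol that the authors deposited. Libraries, per the labels' protocols, were made with a TruSeq RNA v2 kit and sequenced on a HiSeq4000, and the submitters' processing notes name STAR and mm10. Counting tool, strand setting and annotation are not given in the sources used here. Of 21 columns, 18 matched a day of the samples and 3 that matched no sample were not used. Pairs of libraries of a day differed beyond sampling noise (chi-square over degrees of freedom 2.206 to 9.232 on genes with at least 20 counts).

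The tests used edgeR 4.0.16 under R 4.3.3 (filterByExpr with a minimum count of 10, TMM factors, a mean per day over 18 libraries, robust quasi-likelihood fits, 12 residual degrees of freedom). Alternatives were RLE and upper quartile factors, library totals alone, DESeq2 1.42.0, limma-voom 3.58.1, no filter, 1 CPM in 9 libraries, the compared days alone, each library left out, and glmTreat against a fold of 1.5.

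The genes and lists were chosen with earlier results of these data known. Values in every library are given for 10 listed genes, the largest and smallest D15 to D5 change of each role, and the 3 largest called rises and falls of each step. Coordinates are from GENCODE M21 (GRCm38), and promoters from RefSeq (GRCm38.p6). Unique 50-base stretches were computed against the GENCODE transcripts, and genes below 80% are marked uncertain where named. Some promoter sequence is not reported here.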

Additional observations from a re-analysis of the deposited data

How the results depend on the processing

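Across the alternatives other than the fold threshold of 1.5, all 50 genes stayed called across days, 49 stayed called lower from D5 to D15 and 50 between the stages, except 48 between the stages when these were fitted alone, and the main counts were found with each library left out in turn. For the 24 named genes other than Cep55, 336 of 336 values of the D5 to D15 change kept their direction and their side of the threshold. Cep55, not called in any of them, took a value below 0 under upper quartile factors (-0.00697), library totals alone (-0.14), and without D5 library 3 or D15 library 2, with values from -0.0512 to 0.0589 when a D5 or D15 library was left out. Against a fold of 1.5, 28 genes were lower between the stages (10.4% of all genes tested). In the steps between harvests 0 rose and 0 fell to D6 (3.95% and 3.09% of all genes tested), 3 fell to D7 (1.24%), 0 to D8 (0.656%), 0 to D10 (1.39%) and 1 to D15 (5.89%), and 0 rose to D10 (5.97%). Fitting the compared days alone gave 4 falls from D5 to D6 (21.5% of all genes tested). Library totals alone gave 23 falls from D8 to D10 (16.1%) and a median D5 to D15 change of -1.21, with a shift of -0.16 over all genes. The 1 rise from D8 to D10 (Racgap1) became 0 under upper quartile factors, library totals alone, DESeq2, limma-voom, no filter and the compared days alone. With each library left out, counts ranged from 1 to 2 falls to D6, 42 to 47 to D7, 13 to 21 to D8, 6 to 21 to D10 and 27 to 37 to D15. Shares of all genes tested in these fits are not given here, so the ranges only describe the 50 genes. Rises ranged from 0 to 1 in each of the last 2 steps (Racgap1 to D10, and Aurkb to D15 without D15 library 1). The cause of these changes was not tested. No paired analysis was possible because the columns carry no replicate number. The order of columns within a day, which ran with marker shares, is not a label and was not used to pair libraries. The lowest count of any of the 50 genes in a library was 93. At this depth and number of libraries a step change within its SE was not detectable. Some changes larger than their SE were not called either, such as those of Racgap1 from D6 to D7 and Aurkb from D10 to D15.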
